A study of Mus musculus with 9 samples.

Results

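The genes described here are 35 genes of the NRF2 pathway and of antioxidant defence, out of 54532 genes in the deposited table. They were chosen by gene symbol, with earlier results of these data known. They cover NRF2 and its regulators, the thioredoxin and glutathione systems, peroxiredoxins, superoxide dismutases, catalase, enzymes of NADPH supply and the pentose phosphate pathway, and detoxifying reductases. The glutathione S-transferases were left out. All 35 were found, each once, and all 35 passed the filter on low counts. The lowest count of any of them in any library was 157. Their RNA was counted by sequencing polyadenylated transcripts of RENCA, a mouse renal carcinoma cell line, in 3 forms with 3 libraries each. Rescue cells are labelled NDUFA4L2 +/+ and carry NDUFA4L2 from a lentivirus, selected with puromycin. Knockout cells are labelled NDUFA4L2 -/- and were grown from single-cell colonies after editing with Cas9 and a single guide, then screened by quantitative PCR. Empty-vector cells are labelled WT. All were grown in serum-supplemented RPMI that also contained sodium pyruvate. The labels do not say whether the libraries of a line came from separate cultures, or from how many colonies. The p-values therefore weigh a difference between lines against a spread among libraries that is possibly only technical. This spread was estimated jointly from the 3 lines. Effects of the gene, of clone choice, of the virus and of puromycin cannot be told apart.

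NRF2, encoded by Nfe2l2, is a transcription factor that is held at a low level by KEAP1, an adaptor that hands it to a ubiquitin ligase. When electrophiles or oxidants modify KEAP1, NRF2 accumulates, pairs with a small MAF protein and binds antioxidant response elements near genes for glutathione synthesis, thioredoxin recycling, NADPH supply and detoxification. In kidney cancer the pathway is known from tumours in which KEAP1 or NRF2 is mutated. NRF2 is controlled mainly at the level of the protein, which was not measured here.

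Totals ran from 13106531 to 26643877 counts per library. Values per library are counts scaled to a common library size (CPM) with TMM factors, which make the bulk of genes comparable between libraries. Ndufa4l2 had 73, 48 and 35 counts in rescue, 7, 8 and 6 in knockout and 12, 6 and 16 in empty vector, so all 3 rescue libraries lay above the rest, and knockout and empty vector overlapped at these few counts. Genes of the mitochondrial genome took 2.47% ± 0.21 of counts in rescue, 7.01% ± 1.10 in knockout and 2.79% ± 0.55 in empty vector (SD, n = 3). Of 10 epithelial and kidney markers, the kidney cadherin Cdh16, Krt8, Krt18, Pax8 and Pax2 averaged at least 50.2 CPM in every line, while Epcam, Aqp1 and Havcr1 had at most 25 counts in any library. Cdh1, E-cadherin, averaged 2.46 CPM in rescue, 99.6 in knockout and 11.9 in empty vector. The list summed to 1287 to 1344 CPM in rescue, 1599.6 to 1716 in knockout and 956 to 1179.9 in empty vector. The 5 leukocyte markers had at most 2 counts in any library, and the 3 endothelial markers at most 13, of Pecam1. The 3 fibroblast markers summed to 28.3 to 30.4 CPM in rescue, 59.6 to 70.8 in knockout and 26.3 to 33.3 in empty vector, nearly all of it Pdgfrb, while Pdgfra had at most 3 counts. The part of these marker and mitochondrial differences in the results below was not tested. Leaving out all genes of the mitochondrial genome changed none of the calls of the 35 genes. That step moved the median log2 change of all genes in knockout against empty vector by only -3e-05, so it cannot show this part. In RNA from whole cultures, fewer cells with a transcript and less of it per cell cannot be told apart.

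Most of the 35 genes were higher in knockout than in empty vector. By edgeR's quasi-likelihood test at an adjusted p under 0.05 over all genes tested, 27 of 35 rose and 3 fell in knockout, that is 77.1% and 8.57% of them, where 29.5% of the 13326 tested genes rose and 31.1% fell. Their median log2 change was 0.52, against -0.02 over all genes tested. In rescue against knockout 19 of 35 fell and 8 rose, 54.3% and 22.9%, where 27.3% of all tested genes fell and 29.5% rose, and the median was -0.24 against 0.03. In rescue against empty vector 23 of 35 still stood higher and 3 lower, 65.7% and 8.57%, where 22.4% of all tested genes were higher and 25.1% lower, and the median was 0.41 against -0.02. Without knockout replicate 2, 5 of the 35 rose in rescue against knockout. Each pair of these comparisons shares the libraries of a line, so they are not independent of each other. Scaling by library totals alone moved the median of all genes by -0.15 in knockout against empty vector and by 0.18 in rescue against knockout. With that scaling 21 of the 35 rose and 6 fell in knockout, and 11 fell and 14 rose in rescue against knockout, and over all genes 34.4% of calls were higher in knockout, in place of 48.7%, and 69.6% were higher in rescue against knockout, in place of 51.9%. The rises of Gclc, Prdx6, Mafg, Txn1, Prdx2 and Me1 in knockout did not pass by totals, and Txn2, Gpx4 and Prdx4 fell. By totals, the falls in rescue against knockout of Keap1, Nqo1, Srxn1, Prdx4, Cat, Osgin1, Blvrb and Mafg did not pass. Txnrd1, Txn2, Gpx1, Gpx4, Prdx1 and Prdx2 then rose. The calls of the 35 in rescue against empty vector did not change with this scaling. Relative to the median of all genes, that of the 35 stood at 0.54 by both scalings in knockout against empty vector, and at -0.28 by TMM and -0.27 by totals in rescue against knockout. Another scaling shifts all genes of a comparison by nearly the same amount. These differences could therefore hardly move, and are no check of the choice of scaling.

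**Figure D1:**
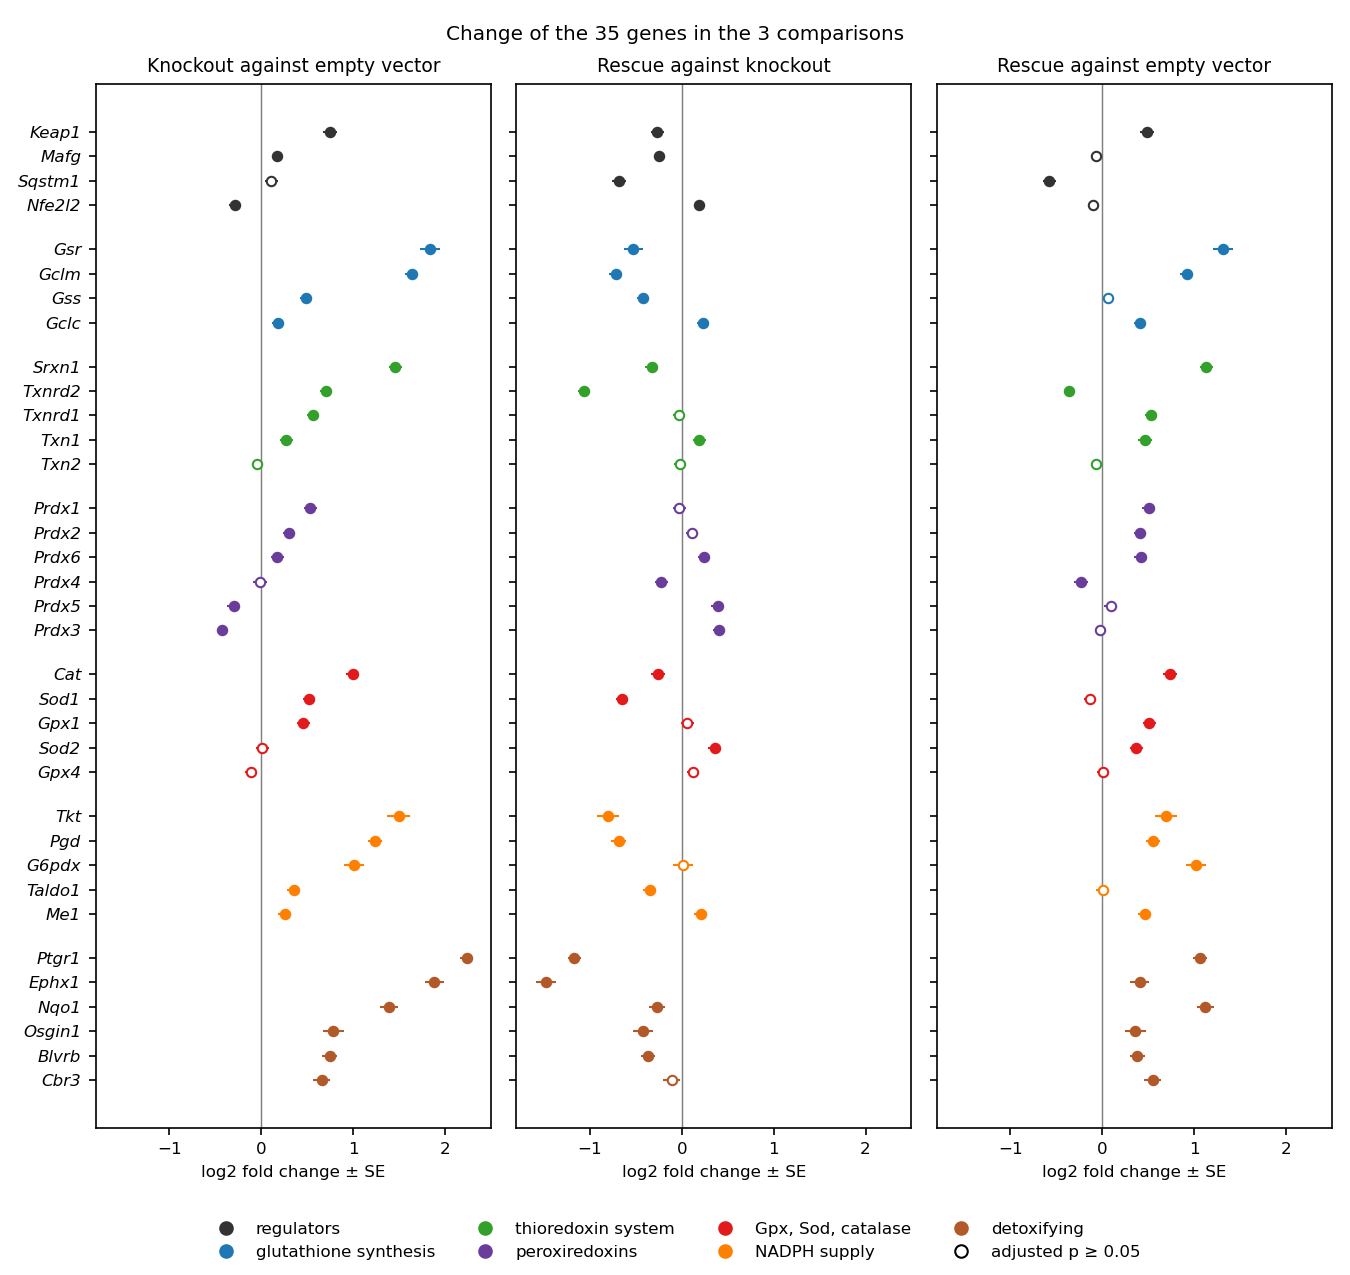
Log2 fold change with its standard error (x axis) of each of the 35 genes (rows, grouped by role) for knockout over empty vector (left), rescue over knockout (middle) and rescue over empty vector (right); filled points had an edgeR adjusted p under 0.05. In the left panel 27 filled points lie right of 0, from 0.18 for Mafg to 2.23 for Ptgr1, and in the middle panel 19 lie left of it.

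The DNA before the start of these genes was searched for the core of the antioxidant response element, TGACNNNGC, on both strands of the 250 bases before each RefSeq start (build GRCm38.p6). Windows were listed for 32 of the 35 genes, 40 in all; Gclc, Gsr and Prdx6 have none. The core was present in 7 of these 40 windows (17.5%), against 3338 of 32851 windows of all genes (10.2%). The genes with a match were Nfe2l2, Gclm, Txnrd1, Prdx1, Sod1, G6pdx and Mafg. A match describes the letters in the window and is not a measured binding site, and response elements farther from the start are outside it. The 4 of these genes with the smallest p in knockout against empty vector are shown, to place the element in DNA upstream of genes that rose in knockout. Each is written 5′ to 3′ on the strand of the gene, in lower case with the match in capitals; in all 4 the capitals read the core on the opposite strand.
Gclm (chr3:122245307-122245556, plus strand): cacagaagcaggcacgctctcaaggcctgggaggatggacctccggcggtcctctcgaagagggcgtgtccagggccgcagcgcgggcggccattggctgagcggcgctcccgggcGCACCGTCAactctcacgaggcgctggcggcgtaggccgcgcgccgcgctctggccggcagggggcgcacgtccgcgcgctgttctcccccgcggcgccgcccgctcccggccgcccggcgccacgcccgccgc
Txnrd1 (chr10:82858956-82859205, plus strand): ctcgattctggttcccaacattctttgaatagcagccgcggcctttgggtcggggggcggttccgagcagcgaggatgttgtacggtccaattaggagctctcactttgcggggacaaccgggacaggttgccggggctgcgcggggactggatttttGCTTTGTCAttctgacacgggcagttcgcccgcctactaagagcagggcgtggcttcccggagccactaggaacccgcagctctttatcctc
Sod1 (chr16:90220512-90220761, plus strand): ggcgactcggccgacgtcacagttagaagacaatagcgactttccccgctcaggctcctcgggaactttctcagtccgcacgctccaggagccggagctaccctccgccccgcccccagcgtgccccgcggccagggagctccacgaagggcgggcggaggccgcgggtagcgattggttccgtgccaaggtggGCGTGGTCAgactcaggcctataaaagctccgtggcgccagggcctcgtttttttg
Prdx1 (chr4:116685349-116685598, plus strand): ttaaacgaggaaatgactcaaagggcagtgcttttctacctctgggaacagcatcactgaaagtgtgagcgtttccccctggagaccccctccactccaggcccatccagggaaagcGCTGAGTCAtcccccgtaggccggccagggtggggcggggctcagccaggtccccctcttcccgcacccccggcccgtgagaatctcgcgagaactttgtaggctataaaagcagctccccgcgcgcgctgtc

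The matches began 134, 92, 56 and 133 bases before the start in Gclm, Txnrd1, Sod1 and Prdx1. Txnrd1 has 3 listed starts and the second holds the match. In knockout against empty vector these 4 genes changed by 1.64, 0.56, 0.52 and 0.53 log2 units, while Nfe2l2, which also holds a match, changed by -0.29. Ptgr1, Srxn1, Pgd, Nqo1, Cat, Ephx1, Txnrd2, Keap1, Tkt and Blvrb had smaller p there than Txnrd1, Sod1 and Prdx1. Their windows held no match. Whether a match goes with a rise was not tested.

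The regulators did not move as a block in knockout. Nfe2l2 itself (ENSMUSG00000015839, chromosome 2, 75675513 to 75704641, minus strand, mm10) stood at 119, 119 and 122 CPM in the rescue libraries, 103, 98.6 and 113 CPM in knockout and 125, 128 and 133 CPM in empty vector. It was lowest in knockout, where all 3 libraries lay below all 3 of empty vector and of rescue. It fell in knockout against empty vector by 0.29 ± 0.06 log2 units (SE; edgeR adjusted p = 0.00045), a fold of 0.818, and rose in rescue against knockout by 0.19 ± 0.06 (edgeR adjusted p = 0.013), where without knockout replicate 2 the edgeR adjusted p was 0.072. Keap1, the inhibitor of NRF2 (ENSMUSG00000003308, chromosome 9, 21229730 to 21239361, minus strand), had 31.5, 31.9 and 29.4 CPM in the rescue libraries, 37.1, 36.2 and 38.2 CPM in knockout and 23.1, 20.3 and 22.7 CPM in empty vector. It had the opposite order, highest in knockout and lowest in empty vector with no overlap between any of the lines. Keap1 changed by 0.75 ± 0.08 log2 units in knockout against empty vector (edgeR adjusted p = 6.1e-08). For Keap1 in rescue, the log2 change was -0.26 ± 0.07 against knockout (edgeR adjusted p = 0.0048) and 0.49 ± 0.08 against empty vector (edgeR adjusted p = 3e-05). Within each library, where scaling plays no part, the FPKM of Keap1 was 0.214, 0.218 and 0.194 of that of Nfe2l2 in rescue, 0.291, 0.297 and 0.272 in knockout, and 0.150, 0.128 and 0.138 in empty vector. FPKM is the deposited level per gene length and library size; this and the other ratios within a library were chosen after the values were seen and carry no test.

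Sqstm1, which encodes p62, a selective-autophagy receptor that can sequester KEAP1 (ENSMUSG00000015837, chromosome 11, 50199366 to 50210827, minus strand), had 842, 905 and 968 CPM in the rescue libraries, 1471, 1417 and 1478 CPM in knockout and 1429, 1274 and 1339.7 CPM in empty vector. The rescue libraries were the low ones, below every library of both other lines, and the knockout and empty-vector values overlapped. It fell in rescue by 0.69 ± 0.07 log2 units against knockout (edgeR adjusted p = 2e-07) and by 0.57 ± 0.07 against empty vector (edgeR adjusted p = 4e-06). Knockout stood 0.11 ± 0.07 log2 units from empty vector (edgeR adjusted p = 0.21), and without empty-vector replicate 1 it passed (0.17, edgeR adjusted p = 0.022). Mafg, a small MAF partner of NRF2, averaged 94.2 ± 3.99 CPM in rescue, 111 ± 4.72 in knockout and 98.6 ± 2.65 in empty vector (SD, n = 3). Its rise in knockout was small (0.18 ± 0.06, edgeR adjusted p = 0.015) and did not pass without empty-vector replicate 2 (adjusted p = 0.064) or without knockout replicate 1 (adjusted p = 0.086), nor with no filter on low counts (0.19). Mafg overlaps Sirt7 on the same strand by 124 bases, and Sirt7 changed by 0.85 log2 units in the same comparison, so its counts carry some uncertainty.

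**Figure D2:**
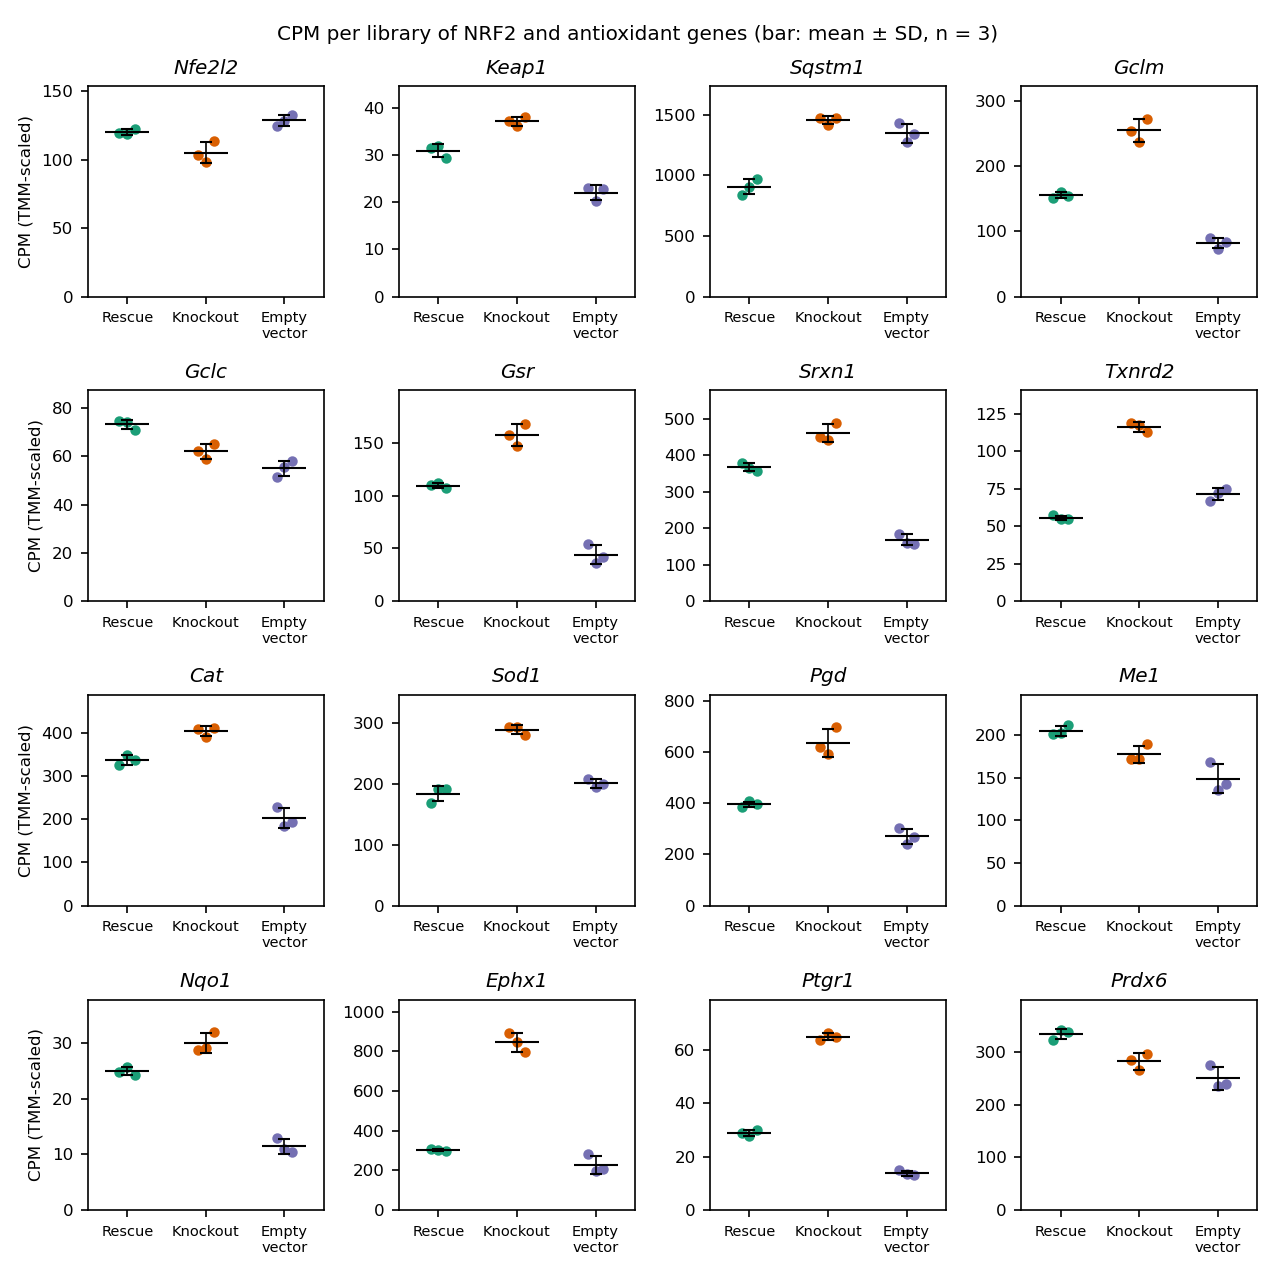
TMM-scaled CPM (y axis, from 0) of 16 of the genes in each library of rescue, knockout and empty vector; points are libraries, and the bar is the mean ± SD of 3 libraries. Ptgr1 sits at 63.8 to 66.4 CPM in knockout, above its rescue libraries at 27.7 to 30.1 and its empty-vector libraries at 13.0 to 14.9, whereas Gclc, Me1 and Prdx6 have their highest points in rescue.

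All 4 genes of glutathione synthesis and recycling rose in knockout, where 29.5% of all tested genes did, and 3 of 4 fell in rescue against knockout, where 27.3% did. Gclm, the modifier subunit of glutamate-cysteine ligase, which makes the first and rate-limiting step (ENSMUSG00000028124, chromosome 3, 122245557 to 122270732, plus strand), stood at 152, 160.3 and 154 CPM in the rescue libraries, 255, 237 and 273 CPM in knockout and 89.1, 73.6 and 83.1 CPM in empty vector. The 3 lines did not overlap, and rescue lay between knockout and empty vector. Its log2 change was 1.64 ± 0.07 in knockout against empty vector (edgeR adjusted p = 7.9e-13). For Gclm in rescue, the log2 change was -0.72 ± 0.07 against knockout (edgeR adjusted p = 5.7e-08) and 0.92 ± 0.07 against empty vector (edgeR adjusted p = 8e-09). Gclc, the catalytic subunit of the same enzyme (ENSMUSG00000032350, chromosome 9, 77754535 to 77794485, plus strand), had 74.6, 74.0 and 71.0 CPM in the rescue libraries, 62.1, 59.0 and 65.3 CPM in knockout and 51.6, 55.4 and 58.0 CPM in empty vector. It was highest in rescue, and its libraries did not overlap between lines. The log2 change of Gclc was 0.23 ± 0.06 in rescue against knockout (edgeR adjusted p = 0.0043) and 0.41 ± 0.06 in rescue against empty vector (edgeR adjusted p = 3.2e-05). In knockout against empty vector it was 0.18 ± 0.07 (edgeR adjusted p = 0.024), a call that was lost without empty-vector replicate 1 (adjusted p = 0.057), without knockout replicate 1 (0.055) and without knockout replicate 3 (0.11), all by edgeR, and whose adjusted p was 0.19 with no filter on low counts. The FPKM ratio of the modifier to the catalytic subunit within a library was 1.22, 1.30 and 1.30 in rescue, 2.46, 2.41 and 2.50 in knockout, and 1.03, 0.795 and 0.857 in empty vector. The subunit ratio was thus highest in knockout without overlap, whatever the scaling between libraries.

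Gsr, glutathione reductase, which returns oxidised glutathione to its reduced form with NADPH (ENSMUSG00000031584, chromosome 8, 33652523 to 33698163, plus strand), had 109.7, 112 and 107 CPM in the rescue libraries, 158, 147 and 168 CPM in knockout and 53.8, 36.1 and 41.9 CPM in empty vector. Every knockout library lay above every rescue library, and those above every empty-vector library. In log2 it changed by 1.84 ± 0.11 in knockout against empty vector (edgeR adjusted p = 1.5e-08). For Gsr in rescue, the log2 change was -0.53 ± 0.11 against knockout (edgeR adjusted p = 0.0009) and 1.31 ± 0.11 against empty vector (edgeR adjusted p = 1e-06). Gss, glutathione synthetase, averaged 69.9 ± 1.06 CPM in rescue, 93.8 ± 2.26 in knockout and 67.0 ± 2.81 in empty vector (SD, n = 3). It rose in knockout by 0.48 ± 0.06 and fell in rescue against knockout by 0.42 ± 0.06, and between rescue and empty vector it did not pass (0.06 ± 0.06, edgeR adjusted p = 0.42). Gss lies across from Acss2 on the other strand over 22544 bases, and Acss2 changed by 0.74, -0.47 and 0.26 log2 units in the 3 comparisons in the same order; the strand setting of the counting is unknown here, so reads of the pair may not be told apart.

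In the thioredoxin system 4 of 5 genes rose in knockout and none fell, beside 29.5% and 31.1% of all tested genes. Srxn1, sulfiredoxin, which repairs overoxidised peroxiredoxins (ENSMUSG00000032802, chromosome 2, 152105516 to 152111376, plus strand), stood at 379.6, 366 and 356 CPM in the rescue libraries, 449.7, 443 and 489 CPM in knockout and 185, 160.4 and 158 CPM in empty vector. Knockout and rescue both lay far above empty vector, and knockout above rescue without overlap. Srxn1 changed by 1.46 ± 0.07 log2 units in knockout against empty vector (edgeR adjusted p = 3e-12). For Srxn1 in rescue, the log2 change was -0.33 ± 0.07 against knockout (edgeR adjusted p = 0.00052) and 1.13 ± 0.07 against empty vector, where it had the smallest adjusted p of the 35 genes (edgeR adjusted p = 4.4e-10).

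Txnrd2, the mitochondrial thioredoxin reductase (ENSMUSG00000075704, chromosome 16, 18426384 to 18479073, plus strand), had 57.3, 54.9 and 55.0 CPM in the rescue libraries, 119, 118 and 113 CPM in knockout and 67.1, 72.2 and 75.0 CPM in empty vector. Knockout was the high line and rescue the low one, below empty vector without overlap. It rose in knockout by 0.71 ± 0.06 log2 units (edgeR adjusted p = 7e-09) and changed by -1.06 ± 0.06 in rescue against knockout, the smallest adjusted p of the 35 genes there (edgeR adjusted p = 2.9e-11), and by -0.36 ± 0.06 in rescue against empty vector (edgeR adjusted p = 9.2e-05). The counts of Txnrd2, and its ratio to Txnrd1 below, are uncertain in the way of other overlapping genes, since the strand setting of the counting is unknown here. Txnrd1, the cytosolic reductase, averaged 400.2 ± 11.0 CPM in rescue, 409 ± 26.6 in knockout and 277 ± 12.0 in empty vector (SD, n = 3). It rose by 0.56 ± 0.07 in knockout and by 0.53 ± 0.07 in rescue, each against empty vector, and in rescue against knockout its log2 change was -0.03 ± 0.07 (edgeR adjusted p = 0.69), or 0.15 by library totals. Per length, the ratio of the mitochondrial to the cytosolic reductase within a library was 0.238, 0.218 and 0.218 in rescue, 0.466, 0.498 and 0.418 in knockout and 0.373, 0.427 and 0.452 in empty vector, so that rescue stood below both other lines, and knockout and empty vector overlapped.

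Txn1, cytosolic thioredoxin (ENSMUSG00000028367, chromosome 4, 57943373 to 57956411, minus strand), had 301, 313 and 306 CPM in the rescue libraries, 269, 271 and 267 CPM in knockout and 244, 193 and 229 CPM in empty vector. It was highest in rescue and lowest in empty vector, with no overlap between lines. Without empty-vector replicate 2, its log2 change in knockout against empty vector was 0.18 and still passed (edgeR adjusted p = 0.026). With all libraries the log2 change of Txn1 was 0.27 ± 0.07 in knockout against empty vector (edgeR adjusted p = 0.0029) and 0.46 ± 0.07 in rescue against empty vector (edgeR adjusted p = 3.1e-05). In rescue against knockout it was 0.19 ± 0.07 (edgeR adjusted p = 0.03), which was lost with median-of-ratios factors, with DESeq2 and without knockout replicate 1, 2 or 3 or rescue replicate 2 or 3, where adjusted p ran from 0.059 to 0.083. Txn2, the mitochondrial thioredoxin, stood at 189.9 ± 5.90 CPM in rescue, 193 ± 5.04 in knockout and 199 ± 6.82 in empty vector, and did not pass in any of the 3 comparisons (log2 changes of -0.04, -0.02 and -0.07). By library totals it passed at -0.20 in knockout against empty vector (edgeR adjusted p = 0.0046) and at 0.16 in rescue against knockout (edgeR adjusted p = 0.018).

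The 6 peroxiredoxins, thiol peroxidases that thioredoxin mostly recharges, moved in both directions in knockout: 3 of 6 rose, 2 fell and 1 did not pass. Over all tested genes 29.5% rose and 31.1% fell, so these counts of 6 genes do not set the family apart. Prdx1, cytosolic and the highest of the family per length, averaged 591 ± 22.3 CPM in rescue, 602 ± 15.0 in knockout and 416 ± 36.3 in empty vector (SD, n = 3). It rose by 0.53 ± 0.07 log2 units in knockout and by 0.51 ± 0.07 in rescue, each against empty vector. Rescue against knockout did not pass (-0.03 ± 0.07, edgeR adjusted p = 0.77). By library totals the log2 change of Prdx1 there was 0.16 and passed (edgeR adjusted p = 0.029). Prdx2, also cytosolic, rose by 0.30 ± 0.06 in knockout (edgeR adjusted p = 0.00049; 0.054 by library totals) and by 0.41 ± 0.06 in rescue, against empty vector. Rescue against knockout did not pass (0.11 ± 0.06), but did by library totals (0.30, edgeR adjusted p = 0.00029) and without empty-vector replicate 1 (edgeR adjusted p = 0.049). Prdx2 shares short stretches with Junb and Rnaseh2a on the other strand.

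Prdx6, a peroxiredoxin with a single catalytic cysteine that relies on glutathione (ENSMUSG00000026701, chromosome 1, 161240112 to 161251219, minus strand), had 323, 341 and 338 CPM in the rescue libraries, 284, 265 and 296 CPM in knockout and 274, 235 and 239 CPM in empty vector. It was highest in rescue, without overlap with the other lines, while knockout and empty vector overlapped. The log2 change of Prdx6 was 0.24 ± 0.07 in rescue against knockout (edgeR adjusted p = 0.0051) and 0.42 ± 0.07 in rescue against empty vector (edgeR adjusted p = 5.5e-05). In knockout against empty vector it was 0.18 ± 0.07 (edgeR adjusted p = 0.034), and this call was lost without empty-vector replicate 2 or 3, knockout replicate 1 or 3, or rescue replicate 2 or 3 (edgeR adjusted p of 0.056 to 0.16), with no filter on low counts (0.17) and with only both lines compared in the fit (0.064).

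Prdx3, the mitochondrial peroxiredoxin, averaged 84.3 ± 3.81 CPM in rescue, 63.7 ± 3.96 in knockout and 85.5 ± 0.513 in empty vector. It fell in knockout by 0.42 ± 0.06 log2 units (edgeR adjusted p = 9.4e-06) and rose in rescue against knockout by 0.40 ± 0.06 (edgeR adjusted p = 1.9e-05), and rescue against empty vector did not pass (-0.02 ± 0.06, edgeR adjusted p = 0.82). Prdx5, found in mitochondria, peroxisomes and cytosol, had 77.0 ± 2.02, 58.7 ± 6.13 and 72.2 ± 1.79 CPM in rescue, knockout and empty vector. It fell in knockout by 0.30 ± 0.07 and rose in rescue against knockout by 0.39 ± 0.07; it overlaps Trmt112 on the other strand by 409 bases, and Trmt112 changed by 0.74 in knockout against empty vector. Prdx4, of the endoplasmic reticulum, did not pass in knockout (-0.01 ± 0.07), but did by library totals (-0.17, edgeR adjusted p = 0.036). It fell in rescue against knockout by 0.22 ± 0.08 (edgeR adjusted p = 0.017), lost without knockout replicate 2 or rescue replicate 2 or 3 (edgeR adjusted p of 0.064 to 0.085), and against empty vector by 0.23 ± 0.07, lost without empty-vector replicate 1 (-0.10, edgeR adjusted p = 0.16) and without rescue replicate 2 or 3 (edgeR adjusted p of 0.055 and 0.068), and with only both lines compared in the fit (0.057).

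Among the other scavenging enzymes, 3 of 5 rose in knockout and none fell, against 29.5% and 31.1% of all tested genes. Cat, catalase, the peroxisomal enzyme that breaks down hydrogen peroxide (ENSMUSG00000027187, chromosome 2, 103453849 to 103485160, minus strand), stood at 327, 349 and 337 CPM in the rescue libraries, 410.0, 391 and 412 CPM in knockout and 229, 184 and 195 CPM in empty vector. The lines did not overlap, with rescue between knockout and empty vector. It changed by 1.00 ± 0.07 log2 units in knockout against empty vector (edgeR adjusted p = 9.5e-10). For Cat in rescue, the log2 change was -0.26 ± 0.07 against knockout (edgeR adjusted p = 0.0049; -0.07 by library totals, not called) and 0.74 ± 0.07 against empty vector (edgeR adjusted p = 1.8e-07). Sod1, the cytosolic copper and zinc superoxide dismutase (ENSMUSG00000022982, chromosome 16, 90220754 to 90226329, plus strand), had 169, 191 and 192 CPM in the rescue libraries, 294, 293 and 280.4 CPM in knockout and 209, 195 and 200.1 CPM in empty vector. The knockout libraries were the high ones, and rescue lay just below empty vector. Sod1 changed by 0.52 ± 0.06 log2 units in knockout against empty vector (edgeR adjusted p = 7.6e-07). For Sod1 in rescue, the log2 change was -0.65 ± 0.06 against knockout (edgeR adjusted p = 4.9e-08) and -0.13 ± 0.06 against empty vector (edgeR adjusted p = 0.1). Sod1 overlaps Scaf4 on the other strand by 650 bases, and the strand setting of the counting is unknown here. Scaf4 changed by -0.20 log2 units in knockout against empty vector, -0.11 in rescue against knockout and -0.32 in rescue against empty vector.

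Sod2, the manganese dismutase of mitochondria, averaged 125 ± 9.28 CPM in rescue, 97.7 ± 3.70 in knockout and 96.8 ± 8.99 in empty vector. It did not pass in knockout (0.01 ± 0.07) and rose in rescue by 0.36 ± 0.07 against knockout (edgeR adjusted p = 0.00028) and by 0.37 ± 0.07 against empty vector (edgeR adjusted p = 0.00028). The FPKM of Sod1 over that of Sod2 within a library was 3.72, 3.65 and 3.74 in rescue, 7.31, 7.87 and 7.23 in knockout, and 4.91, 5.32 and 5.53 in empty vector, again without overlap. Gpx1, the general glutathione peroxidase, rose against empty vector in knockout by 0.46 ± 0.07 and in rescue by 0.51 ± 0.07, and rescue and knockout were 139 ± 6.25 and 133 ± 11.1 CPM. Gpx4, which reduces lipid hydroperoxides in membranes and guards against ferroptosis, did not pass in any comparison with TMM scaling and all libraries (log2 changes of -0.11, 0.12 and 0.01). By library totals it passed at -0.27 in knockout against empty vector (edgeR adjusted p = 0.001) and at 0.30 in rescue against knockout (edgeR adjusted p = 0.00026). Without empty-vector replicate 1 it was 0.13 in rescue against knockout (edgeR adjusted p = 0.037). The value of Gpx4 is uncertain, since the annotated copy Gpx4-ps2 took 1819 counts per library on average against 10786 for Gpx4.

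All 5 genes grouped under NADPH supply rose in knockout, as did 29.5% of all tested genes. The group includes Tkt and Taldo1, which belong to the non-oxidative branch of the pentose phosphate pathway. Of 14 tested genes in a list of other NADPH supply genes, 5 rose and 8 fell in knockout against empty vector. Pgd, 6-phosphogluconate dehydrogenase of the oxidative pentose phosphate pathway (ENSMUSG00000028961, chromosome 4, 149149991 to 149166771, minus strand), had 387, 407 and 395 CPM in the rescue libraries, 621, 592 and 698 CPM in knockout and 301, 243 and 267 CPM in empty vector. Knockout lay above rescue and rescue above empty vector, without overlap. In log2 it changed by 1.24 ± 0.08 in knockout against empty vector (edgeR adjusted p = 1.4e-10). For Pgd in rescue, the log2 change was -0.69 ± 0.08 against knockout (edgeR adjusted p = 4.2e-07) and 0.55 ± 0.08 against empty vector (edgeR adjusted p = 1.2e-05). G6pdx, glucose-6-phosphate dehydrogenase, which opens that pathway, averaged 161 ± 3.41 CPM in rescue, 159 ± 11.1 in knockout and 79.1 ± 15.7 in empty vector. It rose against empty vector by 1.01 ± 0.11 in knockout (edgeR adjusted p = 3.9e-06) and by 1.02 ± 0.11 in rescue (edgeR adjusted p = 7.4e-06), and rescue against knockout did not pass (0.01 ± 0.11, edgeR adjusted p = 0.93). Its span is shared with Ikbkg on the other strand, which changed by 0.42 in knockout against empty vector.

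Tkt, transketolase of the non-oxidative branch, averaged 1379.8 ± 19.7 CPM in rescue, 2404 ± 253 in knockout and 853 ± 180.3 in empty vector, the most counts of the 35 genes in knockout and in rescue. It rose in knockout by 1.50 ± 0.12 log2 units and fell in rescue against knockout by 0.80 ± 0.12, but stayed 0.69 ± 0.12 above empty vector. Taldo1, transaldolase of the same branch, rose in knockout by 0.35 ± 0.07 and fell in rescue against knockout by 0.35 ± 0.07, and rescue and empty vector averaged 618 ± 40.1 and 615 ± 39.8 CPM (0.00 ± 0.07, edgeR adjusted p = 0.96). Me1, the cytosolic malic enzyme, which makes NADPH from malate (ENSMUSG00000032418, chromosome 9, 86581371 to 86695953, minus strand), had 201, 202 and 212 CPM in the rescue libraries, 172, 171 and 189 CPM in knockout and 168, 136 and 142 CPM in empty vector. It was highest in rescue and lowest in empty vector, without overlap. The log2 change of Me1 was 0.25 ± 0.07 in knockout against empty vector (edgeR adjusted p = 0.0059; 0.2 by library totals), 0.46 ± 0.07 in rescue against empty vector (edgeR adjusted p = 4.3e-05) and 0.21 ± 0.07 in rescue against knockout (edgeR adjusted p = 0.022). That last call was lost without knockout replicate 1 or 2 or rescue replicate 3 (edgeR adjusted p of 0.075 to 0.085).

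The 6 detoxifying reductases and other response genes all rose in knockout, and all 6 were still higher in rescue than in empty vector. The shares over all tested genes were 29.5% and 22.4%. Ptgr1, prostaglandin reductase 1, which reduces reactive enals and enones (ENSMUSG00000028378, chromosome 4, 58965439 to 58987119, minus strand), had 28.9, 27.7 and 30.1 CPM in the rescue libraries, 63.8, 66.4 and 64.7 CPM in knockout and 14.9, 13.5 and 13.0 CPM in empty vector. The lines were far apart, with rescue between. It had the smallest adjusted p of the 35 genes in knockout against empty vector, 4.71-fold (2.23 ± 0.07 log2 units, edgeR adjusted p = 1.9e-14), and changed by -1.17 ± 0.07 in rescue against knockout (edgeR adjusted p = 4.6e-11) and by 1.07 ± 0.08 in rescue against empty vector (edgeR adjusted p = 2.3e-09). Ephx1, microsomal epoxide hydrolase (ENSMUSG00000038776, chromosome 1, 180976210 to 181020904, minus strand), had 309, 304 and 299 CPM in the rescue libraries, 892, 847 and 798 CPM in knockout and 280.3, 198 and 208 CPM in empty vector. Its knockout libraries stood alone, while rescue was a little above empty vector. Ephx1 changed by 1.88 ± 0.11 log2 units in knockout against empty vector (edgeR adjusted p = 1.2e-09). For Ephx1 in rescue, the log2 change was -1.48 ± 0.10 against knockout (edgeR adjusted p = 1.6e-08) and 0.41 ± 0.10 against empty vector (edgeR adjusted p = 0.0047).

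Nqo1, the quinone reductase most used as a readout of NRF2 (ENSMUSG00000003849, chromosome 8, 107388225 to 107403206, minus strand), had 24.9, 25.7 and 24.3 CPM in the rescue libraries, 28.7, 29.2 and 32.1 CPM in knockout and 13.0, 11.0 and 10.4 CPM in empty vector. Knockout and rescue both lay above empty vector, and closer to each other than to it. The log2 change of Nqo1 was 1.39 ± 0.09 in knockout against empty vector (edgeR adjusted p = 2.7e-10) and 1.12 ± 0.09 in rescue against empty vector (edgeR adjusted p = 1.7e-08). Rescue against knockout gave -0.27 ± 0.09 (edgeR adjusted p = 0.013), lost without knockout replicate 3 or rescue replicate 3 (edgeR adjusted p of 0.083 and 0.053) and by library totals (-0.09, adjusted p = 0.43). Blvrb, biliverdin reductase B, averaged 33.8 ± 0.602 CPM in rescue, 43.7 ± 3.55 in knockout and 25.9 ± 2.57 in empty vector, with log2 changes of 0.75 ± 0.08 in knockout against empty vector and -0.37 ± 0.08 in rescue against knockout. Osgin1, an oxidative-stress-induced growth inhibitor, rose in knockout by 0.78 ± 0.11 and fell in rescue against knockout by 0.42 ± 0.11; its rise in rescue against empty vector (0.36 ± 0.11, edgeR adjusted p = 0.014) was lost without rescue replicate 1 or 2 (edgeR adjusted p of 0.085 and 0.052). Cbr3, carbonyl reductase 3, rose against empty vector by 0.66 ± 0.09 in knockout and 0.55 ± 0.09 in rescue, and rescue against knockout did not pass (-0.11 ± 0.09).

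Compared per length, with the deposited FPKM, the genes were ordered within each line. In knockout the levels ran from 6.28 ± 0.732 FPKM for Osgin1 to 434 ± 25.4 for Ephx1 (SD, n = 3), and 10 of 35 were at 100 FPKM or more. Ephx1 and Sqstm1 (434 ± 9.77) could not be ordered beyond their spread in knockout. Sqstm1 was first in empty vector (397 ± 26.9 FPKM) and Gpx4 first in rescue (326 ± 11.6 FPKM), and Osgin1 and Keap1 were the lowest in all 3 lines. In empty vector Ephx1 stood at 116 ± 24.0 FPKM, Nqo1 at 7.31 ± 0.935 and Ptgr1 at 5.94 ± 0.491, the last among the 3 lowest of the 35.

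**Figure D3:**
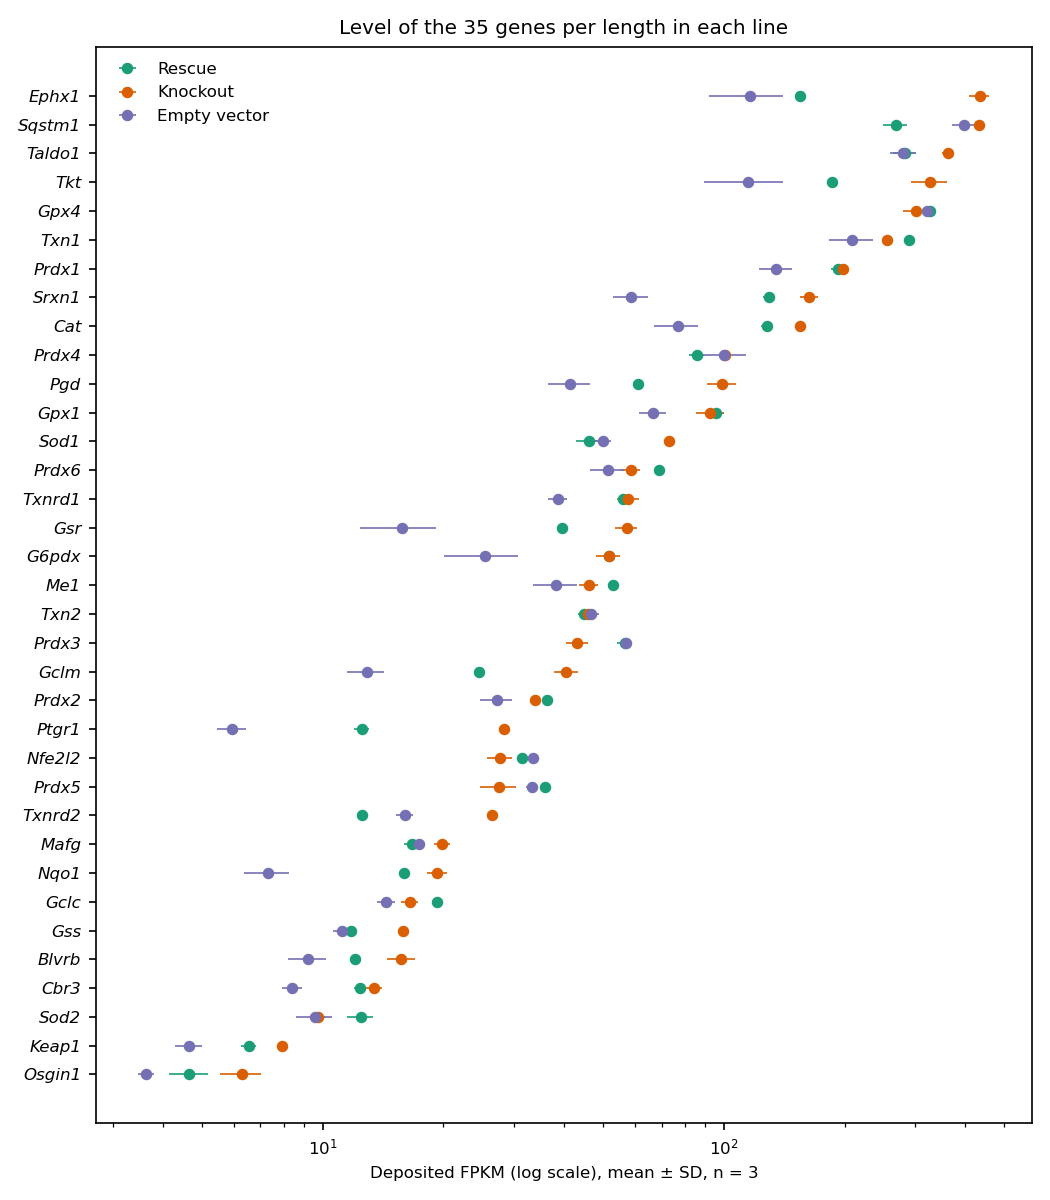
Deposited FPKM (x axis, log scale) of the 35 genes (rows, ordered by their level in knockout) in rescue, knockout and empty vector; points are means and bars SD of 3 libraries. Levels in knockout run from 6.28 FPKM for Osgin1 to 434 for Ephx1, and the empty-vector points of Gsr, Gclm, Ptgr1 and Nqo1 lie to the left of those of both other lines.

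Genes around the pathway that are not among the 35 were taken from lists written for this report with earlier results of these data known. Of 20 other genes known to respond to NRF2, 18 had enough counts; 15 rose in knockout against empty vector and none fell, with a median log2 change of 0.55, where 29.5% of all tested genes rose and their median was -0.02. Of the 18, 9 fell and 4 rose in rescue against knockout, where 27.3% of all tested genes fell and 29.5% rose. In rescue against empty vector 11 were higher and 2 lower, where 22.4% of all tested genes were higher and 25.1% lower. Aox1, an aldehyde oxidase, rose in knockout by 1.58 ± 0.09 log2 units (edgeR adjusted p = 2.8e-11), Entpd5 by 1.56 ± 0.09 (1.2e-10), the haem transporter Slc48a1 by 1.29 ± 0.08 (1.2e-10) and Trim16 by 1.11 ± 0.10 (1.6e-08). Slc7a11, the cystine importer that feeds glutathione synthesis, averaged 47.6 ± 3.05 CPM in rescue, 109 ± 7.90 in knockout and 38.5 ± 11.1 in empty vector (SD, n = 3), and rose in knockout by 1.49 ± 0.18 (edgeR adjusted p = 0.00016). Hmox1, haem oxygenase 1, which both NRF2 and the repressor BACH1 control, averaged 251 ± 4.38 CPM in rescue, 168 ± 6.59 in knockout and 171 ± 16.0 in empty vector. Its log2 change was -0.02 ± 0.07 in knockout against empty vector (edgeR adjusted p = 0.8) and 0.58 ± 0.07 in rescue against knockout (edgeR adjusted p = 5e-07).

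Of 12 other regulators of NRF2, all with enough counts, 5 rose and 4 fell in knockout against empty vector, with a median of 0.03. Over all tested genes 29.5% rose and 31.1% fell, so the counts of these regulators stand near the background. Bach1, which competes with NRF2 for response elements, averaged 28.5 ± 1.45 CPM in rescue, 50.1 ± 1.96 in knockout and 27.2 ± 2.60 in empty vector (SD, n = 3). It rose in knockout by 0.89 ± 0.08 log2 units (edgeR adjusted p = 8.2e-09) and fell in rescue against knockout by 0.82 ± 0.08 (edgeR adjusted p = 2.8e-08). Nfe2l1, the NRF2 relative that drives proteasome genes, did not pass in knockout (0.12 ± 0.08, edgeR adjusted p = 0.17) and fell in rescue against knockout by 0.34 ± 0.08 (edgeR adjusted p = 0.00092). Unlike Mafg, the small MAF genes Mafk and Maff fell in knockout against empty vector. Their log2 changes were -0.65 ± 0.07 (edgeR adjusted p = 3e-07) and -0.78 ± 0.11 (4e-06). In rescue against knockout Maff rose by 0.59 ± 0.11 (edgeR adjusted p = 0.00014) and Mafk did not pass (-0.02 ± 0.08, 0.87).

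**Figure D4:**
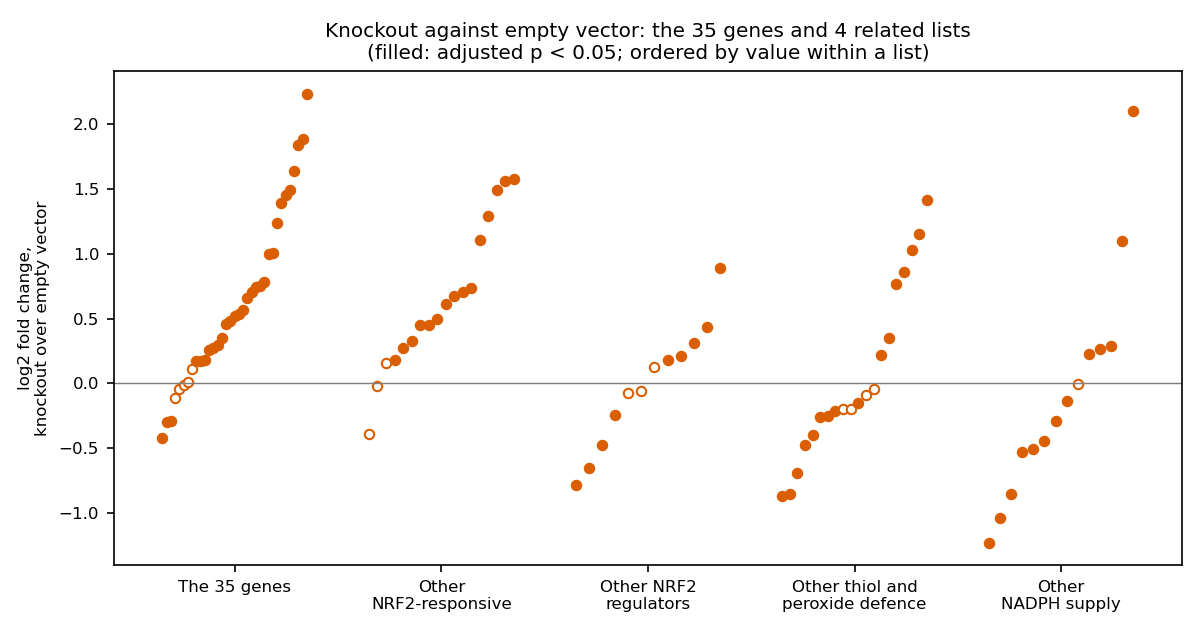
Log2 fold change in knockout over empty vector (y axis) of the 35 genes and of 4 lists of related genes that are not among them; each point is a gene, ordered by value within its list, and filled points had an edgeR adjusted p under 0.05. All 15 called genes of the other NRF2-responsive list lie above 0, whereas the lists of other thiol and peroxide defence genes and other NADPH supply genes hold 7 and 5 called points above 0 and 9 and 8 below.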

How the data were processed

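RNA of 9 RENCA libraries was analysed, 3 per line; all 3 knockout libraries of the labels were used, although the series text speaks of fewer. The submitters' processing notes name CASAVA, TopHat2, HISAT and HISAT2 without saying which step each served, and the build mm10. Whole-number counts per gene were deposited without normalization, per the file headers; the counting tool and its strand setting are unknown here. The FPKM, scaled by gene length and library size, were deposited by the authors and used only to compare levels between genes. Gene length is a further column, per the file headers.

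The test was that of edgeR 4.0.16, run in R 4.3.3: 13326 genes passed filterByExpr, libraries were scaled by TMM, and a robust quasi-likelihood model with 1 mean per line was fitted to all 9 libraries, with p adjusted by Benjamini-Hochberg over those genes and a threshold of 0.05. The SE came from the log2 change and its F statistic. Alternatives were other scalings, DESeq2 1.42.0, other filters, groups and a replicate block, and leaving out each library. No pair of replicates was the same within counting error (chi-square over its degrees of freedom, 3.64 to 20.3). The largest values were those of empty-vector replicate 1, at 20.3 with replicate 2 and 14.1 with replicate 3. Empty-vector replicates 2 and 3 gave 7.36, and knockout replicates 1 and 3 gave 13.0. The 35 genes and the lists were chosen with earlier results of these data known. Values per library are given for Nfe2l2, Keap1 and the 6 genes with the smallest adjusted p in each comparison. They are also given for genes that rose in both knockout against empty vector and rescue against knockout. Related genes are named if they passed in knockout with a log2 change of at least 1, at most 4 per list and direction. Hmox1, Slc7a11, Bach1 and Nfe2l1 are named whatever their value, and Mafk and Maff were added beside Mafg after their values were seen. Promoter windows are from RefSeq. Counts of Txnrd2 are uncertain in the way of other overlapping genes, and a result on this is not reported here.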

Additional observations from a re-analysis of the deposited data

How the results depend on the processing

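The counts of the 35 genes called in each direction kept within 1.5 times of those reported with median-of-ratios factors, DESeq2, no low-count filter, only the groups compared, and without genes of the mitochondrial genome. With library totals alone, 6 genes were lower in knockout against empty vector, and in rescue against knockout 14 were higher and 11 lower. Leaving out each library, the number higher in rescue against knockout ran from 5 (without knockout replicate 2) to 10, and the others ran from 24 to 27 higher in knockout against empty vector, 17 to 19 lower in rescue against knockout and 22 to 23 higher in rescue against empty vector. In rescue against knockout Txnrd1 (0.15), Txn2 (0.16) and Prdx1 (0.16) had the other sign and passed with library totals. Over all alternatives, 25 of 35 genes kept their call in knockout against empty vector, 18 in rescue against knockout and 33 in rescue against empty vector; signs were not compared where neither setting called a gene. With the replicate block 27 genes rose and 3 fell in knockout, and the counts of the other comparisons were also those reported. Deviations of same-numbered libraries correlated at -0.15 to 0.05 across genes. Taken from only 3 libraries per line, these correlations cannot exclude a batch shared by libraries of the same number. The 3 libraries per line and the unknown strand setting limit what can be read from small changes and from overlapping genes. The cause of these shifts was not tested.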

Other observations

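Other genes of thiol and peroxide defence, outside the 35, moved in both directions in knockout against empty vector: of 20 with enough counts out of 24 listed, 7 rose and 9 fell, with a median log2 change of -0.17. Over all tested genes 29.5% rose and 31.1% fell, with a median of -0.02. Glrx, the cytosolic glutaredoxin, rose by 1.42 ± 0.16 log2 units (edgeR adjusted p = 3.8e-07), Msrb1, which repairs oxidised methionine, by 1.15 ± 0.08 (2e-10) and the secreted peroxidase Gpx3 by 1.03 ± 0.07 (3.3e-10). In rescue against knockout Gpx3 fell by 1.17 ± 0.07 (edgeR adjusted p = 5.5e-11), Msrb1 fell by 0.35 ± 0.07 (0.00047), and Glrx did not pass (-0.34 ± 0.15, 0.058).

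Among other genes grouped under NADPH supply, of 14 with enough counts out of 16 listed, 5 rose and 8 fell in knockout against empty vector, with a median of -0.21, beside the same shares over all tested genes. Idh1, the cytosolic NADP-dependent isocitrate dehydrogenase, averaged 96.0 ± 5.21 CPM in rescue, 155 ± 7.76 in knockout and 35.8 ± 4.83 in empty vector (SD, n = 3), and rose in knockout by 2.10 ± 0.08 log2 units (edgeR adjusted p = 1.5e-13). H6pd, the hexose-6-phosphate dehydrogenase of the endoplasmic reticulum, rose by 1.10 ± 0.09 (1.2e-08). Me3, the mitochondrial NADP-dependent malic enzyme, fell by 1.23 ± 0.12 (edgeR adjusted p = 6.8e-08), and Rpia, ribose-5-phosphate isomerase of the non-oxidative pentose phosphate branch, fell by 1.04 ± 0.07 (5.7e-10). In rescue against knockout Me3 rose by 1.20 ± 0.13 and Rpia by 1.20 ± 0.07, while H6pd fell by 1.15 ± 0.09 and Idh1 by 0.69 ± 0.08.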
